A study of Mus musculus with 6 samples.

Results

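Cdk6, Cdk4, Ccnd2, Ccnd3, Cdkn1b, Cdkn2c and Cdkn2d encode 2 cyclin-dependent kinases of the G1 phase, 2 of the D cyclins that activate them, and 3 proteins that inhibit cyclin-dependent kinases. Their chromatin was followed by ATAC-seq in mouse CD8+ T cells. A region of the deposited count matrix was assigned to one of these genes if it overlapped the gene's span, or if the nearest end of any protein-coding gene was an end of that gene and lay within 50 kb. This gave 34 of the 24605 regions, all of which passed the filter on low counts. Cdk6 had 10 regions, Ccnd3 11, Ccnd2 8 and Cdkn1b 2, and Cdk4, Cdkn2c and Cdkn2d had 1 each.

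The labels describe wild-type mouse cells from pancreas, spleen and lymph nodes, sorted as CD8+ T cells. The study compared 3 libraries of cells given 100 µM palmitate, a saturated fatty acid, with 3 control libraries after 48 hours, each from 50000 sorted cells. Both groups were wild type, and the labels name no allele or agent besides palmitate and no vehicle for the controls. The labels number the replicates without saying whether they were separate animals or cultures, so errors and calls measure how far these libraries scatter, and that scatter may be purely technical.

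D cyclins bind CDK4 or CDK6, and the active kinases phosphorylate the retinoblastoma protein, which releases E2F transcription factors and lets a cell pass from G1 into DNA synthesis. Proteins of the INK4 family, to which Cdkn2c and Cdkn2d belong, bind CDK4 and CDK6 themselves, whereas the product of Cdkn1b, a member of the CIP/KIP family, acts on complexes of a cyclin with its kinase. In T cells this switch follows antigen and cytokine signals, and cyclin D2, cyclin D3 and CDK6 are known from lymphocyte proliferation and thymocyte development.

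The genes were listed with results of the comparison of palmitate with control already known, among them the loss at a region inside Cdk6. Every fold change and call below is therefore a description of these regions and is given without a p-value. A region is called when its Benjamini-Hochberg adjusted p from edgeR (quasi-likelihood fit over all 24316 regions tested) was below 0.05. CPM is the usual depth-scaled count, here over reads in regions and after TMM scaling. "Rose" and "fell" are used of called regions only. ATAC-seq counts reads where the Tn5 transposase can cut, so CPM measures how open a region is, and a change in the share of cells that are open cannot be told apart from a change within each cell. Libraries held 2219136 to 3089230 counts in regions. Control 2 lay nearest to palmitate on the first principal component (-26.4, against -37 and -42.6 in the other controls and 29.1 to 39.4 in palmitate). Without it 4 of the 34 regions were called higher and 7 lower, against 5 and 6 with it, while 11.4% and 13.9% of all regions were (25.2% in all). All 10 markers of CD8 T cells had a region at a gene end, with 392 to 445 CPM summed over them in controls and 371 to 434 in palmitate. Within that sum Thy1 had 30.9, 33.3 and 32.6 CPM in controls and 21.3, 20.7 and 24.2 in palmitate, and Cd5 had 30.1, 31.3 and 28.2 against 23.7, 26.8 and 25.7, so palmitate lay below control at both, and their part in the results was not tested. Cd4, Foxp3, Cd79a and all 3 markers of NK cells had no region there. At 1 gene each of the CD4 T cell (Zbtb7b), B cell (Ebf1), pancreas (Cela1), and fibroblast and endothelium (Col1a1) lists there was a region, and the groups overlapped at all 4. Of 5 myeloid markers only Itgam had one, at 5.32 to 7.14 CPM in controls and 9.85 to 13.0 in palmitate, and its part in the results was not tested.

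The start regions of these genes are shown first, because those of Cdk4 and Cdkn2d held the highest levels and were called higher, while those of Cdk6 and Ccnd3 were not called although called regions lay elsewhere in both genes. Sequences are the 250 bases before the start in the promoter table of RefSeq (GRCm38.p6, the assembly of mm10), 5′ to 3′ on the strand of the gene. That table held 6 of the 7 genes. Capitals mark GGGCGG, the core of the GC box bound by Sp factors, and CACGTG, the E box bound by MYC and MAX, each searched on both strands. The windows are chr10:127063285-127063534 for Cdk4 (plus strand), chr9:21291210-21291459 for Cdkn2d (minus strand), chr5:3343643-3343892 for Cdk6 (plus strand) and chr17:47504801-47505050 for the first of 2 listed starts of Ccnd3 (plus strand).
Cdk4: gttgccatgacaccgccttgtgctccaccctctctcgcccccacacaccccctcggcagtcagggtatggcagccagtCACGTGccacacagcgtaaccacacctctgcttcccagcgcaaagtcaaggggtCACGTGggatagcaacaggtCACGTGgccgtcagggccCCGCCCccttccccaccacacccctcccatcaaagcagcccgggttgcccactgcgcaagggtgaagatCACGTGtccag
Cdkn2d: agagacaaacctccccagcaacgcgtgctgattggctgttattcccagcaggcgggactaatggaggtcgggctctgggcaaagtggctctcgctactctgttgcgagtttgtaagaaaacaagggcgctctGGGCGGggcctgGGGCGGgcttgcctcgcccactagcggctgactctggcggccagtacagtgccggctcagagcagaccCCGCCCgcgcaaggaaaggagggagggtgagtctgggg
Cdk6: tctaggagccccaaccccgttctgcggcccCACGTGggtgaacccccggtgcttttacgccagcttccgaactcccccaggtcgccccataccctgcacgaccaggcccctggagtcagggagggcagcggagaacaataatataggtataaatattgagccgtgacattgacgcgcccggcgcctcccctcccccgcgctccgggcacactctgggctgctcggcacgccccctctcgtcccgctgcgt
Ccnd3: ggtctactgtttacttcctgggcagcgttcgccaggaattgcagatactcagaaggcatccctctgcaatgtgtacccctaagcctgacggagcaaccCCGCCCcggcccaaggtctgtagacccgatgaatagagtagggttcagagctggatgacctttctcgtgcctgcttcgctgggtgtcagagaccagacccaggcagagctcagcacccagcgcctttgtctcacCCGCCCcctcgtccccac

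The E box stood 4 times before Cdk4, ending 167, 113, 93 and 6 bases before the start, and only 7 of the 32851 promoter windows of the table (0.0213%) held it 4 times or more. At least 1 E box was found in 6.02% of all windows. Cdkn2d carried 3 GC boxes, and 8.47% of windows had 3 or more, while the Cdk6 window held 1 E box and no GC box. GC boxes were present in 6 of the 8 windows of these genes and in 32.7% of all windows. The E2F core letters TTCCCGC stood in 1 of the 8, that of Cdkn2c, and in 3.82% of all. Other letters were searched too. GGAAA (NFAT) stood in 2 of the 8 and 55.6% of all, CCGGAAG (ETS) in 1 and 6.91%, and TGTTTAC (forkhead) in 1 and 3.17%. In 0 of the 8 were TTTGAA (16% of all), TGACTCA (4.46%), TTGGCGC (1.97%), TGACGTCA (1.55%), TTTCCCGC (0.895%) and TTTGGCGC (0.417%). The cutoffs of 4 and 3 matches were the counts of Cdk4 and Cdkn2d themselves. GC content was 64.4% before Cdk4, 63.6% before Cdkn2d, 66% before Cdk6 and 59.6% before Ccnd3, against a median of 52.4% over all windows. The whole 250 bases lay inside a region of the matrix at Cdk4, Cdkn2d, Cdk6, Cdkn1b and the first listed start of Cdkn2c. A listed start need not be the end of the gene's span. The Cdk6 window lay wholly inside the span, and so did most of the Cdkn2d window, with its 3 GC boxes. A match of letters describes the window and says nothing of binding.

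Across the 34 regions 5 rose and 6 fell with palmitate, and 23 were not called. Over all 24316 regions tested 24.6% were called, 11.9% higher and 12.7% lower. The 3 palmitate libraries lay all above the 3 controls in 7 of the 34 regions and all below in 6, as in 17.9% and 21.0% of all tested regions (38.9% together). The median log2 fold change was -0.14 for the 34 regions and -0.05 for all regions. Of the 6 falls 4 belonged to Cdk6, 1 to Ccnd3 and 1 to Ccnd2. The one at Ccnd2 had peaks in control lists only, so it was in the matrix through the group where it was higher. The 5 rises were at Cdk4, Cdkn2d, Cdkn1b and, in 2 regions, Ccnd3.

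**Figure D1:**
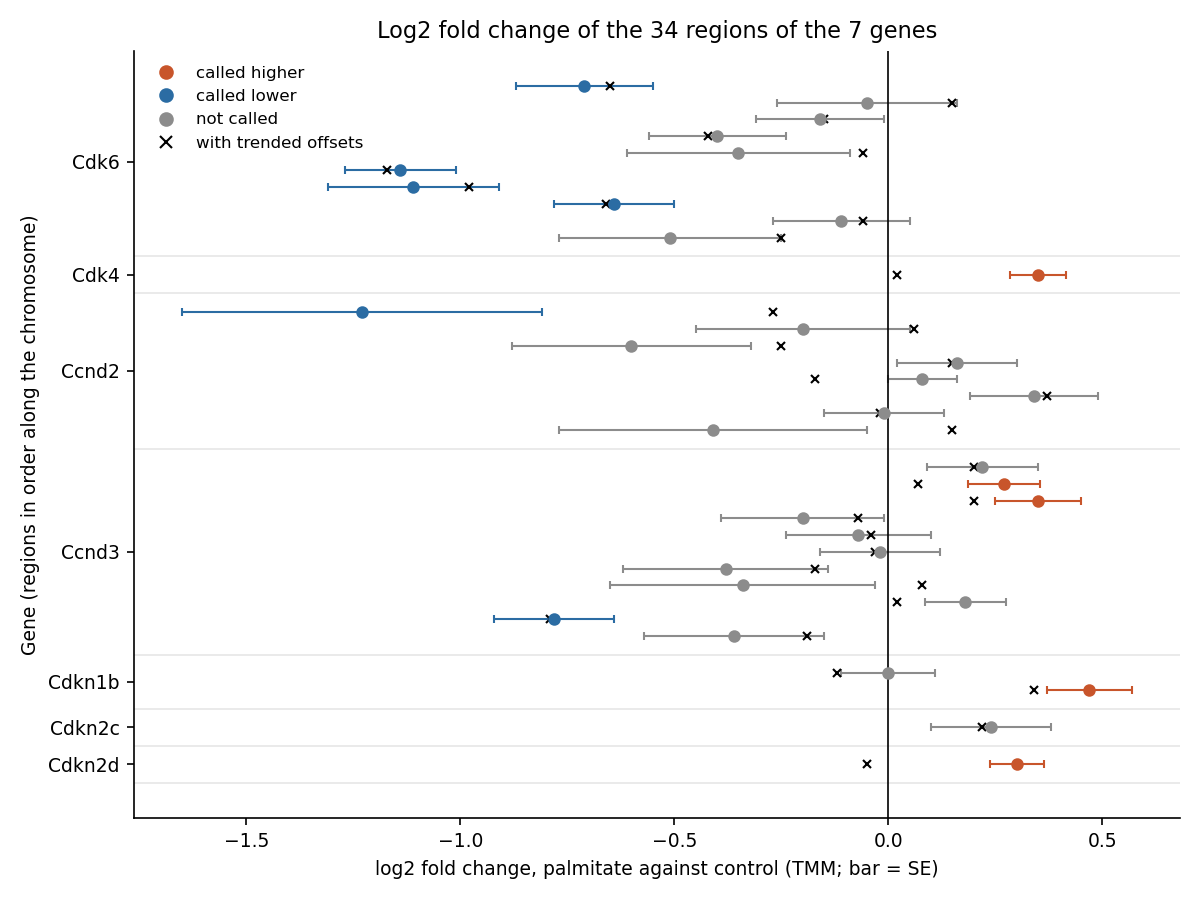
Log2 fold change of palmitate against control (horizontal axis) for each of the 34 regions, grouped by gene and in order along the chromosome. Circles are edgeR estimates with TMM scaling and bars their SE, orange for called higher, blue for called lower and grey for not called. Crosses are the estimates with trended offsets, which lie near the circles in the called regions of Cdk6 and close to 0 for Cdk4 and Cdkn2d.

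Openness differed widely among the genes before any comparison. Per kb of region width, the ends of Cdkn2d and Cdk4 stood highest among the 34 regions in controls, at 435 ± 40.7 and 418 ± 38.1 CPM per kb (mean ± SD, n = 3 here and throughout), a difference smaller than their spread. The regions of Ccnd3 that rose had 211 ± 6.66 and 195 ± 14.6 CPM per kb, that over the end of Ccnd2 147 ± 10.9 CPM per kb, that over the first start of Ccnd3 145 ± 8.06, and that over its second listed start 143 ± 4.31. The last 3 lay within one another's spread. Lower were the ends of Cdkn2c with 83.4 ± 3.75 and Cdkn1b with 77.1 ± 10.4, again within their spread. The region at the listed start of Cdk6 was at 30.8 ± 3.31 CPM per kb. It was lower than the element of Cdk6 117 kb into the gene, which had 90.7 ± 5.39 CPM per kb. The start region was the widest of the 34, at 1122 bp against 664 bp for the element. Without division by width their control means were 34.5 and 60.2 CPM. Palmitate libraries had 533 ± 9.0 at Cdkn2d, 533 ± 14.8 at Cdk4 and 27.2 ± 2.89 CPM per kb at the Cdk6 start.

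Cdk6, the kinase partner of D cyclins that is prominent in lymphoid cells, spans 190 kb (chromosome 5, 3341004 to 3531008). It held the largest group of falls, 4 of its 10 regions, where 12.7% of all regions were called lower. In the TMM fit every one of the 10 had a log2 fold change below 0, from -1.14 to -0.05. So did 6071 of all 8694 regions inside genes, 4477 of 6214 intergenic ones and 2653 of 9408 at gene ends. With trended offsets 9 of the 10 were below 0. Summed over the 10 regions, Cdk6 had 339, 308 and 330 CPM in controls 1 to 3 and 227, 226 and 209 CPM in palmitate 1 to 3. The groups did not overlap, and the mean sums were 326 ± 15.9 and 221 ± 9.88 CPM. This sum was not tested and holds the 4 falls.

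The deepest fall was in the element at 3460643 to 3461307, 117 kb downstream of the listed start and 69.7 kb from the nearest end of the gene. Its levels were 63.2, 56.2 and 61.2 CPM in controls and 30.7, 26.8 and 24.2 CPM in palmitate. Every palmitate library was thus well below every control, and the log2 fold change was -1.14 ± 0.13 (SE). The next region, at 3477760 to 3478361 and 16.5 kb further on, had 31.8, 31.6 and 24.8 CPM in controls and 14.6, 9.85 and 16.5 CPM in palmitate. It fell by 1.11 on the log2 scale (SE 0.2), with no overlap between groups. The next element, at 3494464 to 3495018, stood at 51.4, 46.2 and 52.0 CPM in controls and 31.5, 37.0 and 26.8 CPM in palmitate. It too was separated between groups, with a log2 fold change of -0.64 ± 0.14 (SE). These 3 neighbours lay within 34.4 kb of each other, with no other region of the matrix assigned to Cdk6 between them.

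The other fall lay outside the gene, 39.5 kb before the span (3300860 to 3301454). It had 32.7, 37.9 and 33.3 CPM in controls and 23.3, 20 and 20.7 CPM in palmitate, and a log2 fold change of -0.71 ± 0.16 (SE). No library of one group reached the other. Cdk6 is its nearest protein-coding end, which does not make Cdk6 its target.

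At the start of Cdk6 the groups overlapped. The region over the listed start (3343632 to 3344754) ranged from 30.9 to 38.3 CPM in controls and from 26.8 to 32.6 CPM in palmitate, with a log2 fold change of -0.16 ± 0.15 (SE). The region 0.197 kb inside the end of the span had 14.8, 17.6 and 14.6 CPM in controls and 17.3, 13.3 and 15.3 CPM in palmitate (log2 fold change -0.05 ± 0.21 SE). Neither was called.

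Among the other regions, the one 12.2 kb into Cdk6 (3355696 to 3356403) had 56.2, 32.3 and 50.0 CPM in controls and 36.3, 40.1 and 27.2 CPM in palmitate. Control 2 lay among the palmitate libraries there, and the log2 fold change of -0.40 ± 0.16 (SE) was not called. This value turned on single libraries. It was called without control 2 (-0.60) or palmitate 2 (-0.52) and with total counts (-0.51), and it was nearer 0 and not called without control 1 (-0.24), palmitate 3 (-0.25) or control 3 (-0.30). The last region of the gene, 166 kb in, had 12.2, 11 and 21.8 CPM in controls and 10.6, 11.6 and 9.59 CPM in palmitate (-0.51 ± 0.26 SE, not called). Only control 3 stood apart there: without it the log2 fold change was -0.10. It was -0.25 with trended offsets and -0.71, and called, without control 2. The regions 39.9 and 158 kb in had log2 fold changes of -0.35 and -0.11 and were not called.

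**Figure D2:**
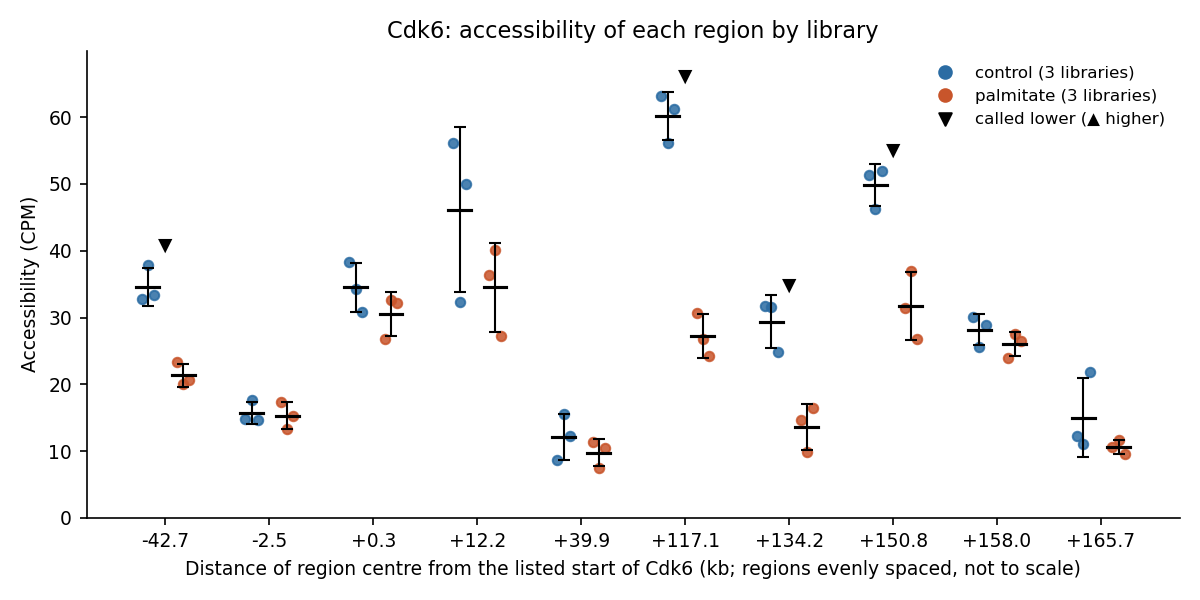
Accessibility in CPM (vertical axis) of the 10 Cdk6 regions, ordered by the distance of the region's centre from the listed start in kb and evenly spaced. Points are single libraries, bars the mean ± SD of 3, and triangles mark called regions. At 117.1, 134.2 and 150.8 kb, and at -42.7 kb, all palmitate points lie below all control points, whereas at 0.3 kb the groups overlap.

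Ratios of counts within a library do not depend on how libraries are scaled to each other, and these pairs were chosen after the values were seen. The count of the element at 3460643 divided by that of the start region was 1.65, 1.64 and 1.98 in controls and 1.15, 0.823 and 0.75 in palmitate. For the element at 3477760 it was 0.83, 0.922 and 0.802 in controls and 0.544, 0.302 and 0.512 in palmitate, and for that at 3494464 it was 1.34, 1.35 and 1.68 against 1.18, 1.14 and 0.833. Groups stayed apart in each of these. The ratio overlapped for the region before the gene, with 0.852 in control 1 and 0.868 in palmitate 1.

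The 4 falls of Cdk6 were called in each of 15 alternative fits and thresholds. Inside genes 19.6% of all regions were called lower. The log2 fold change of the element at 3460643 ranged from -1.26 to -1.06 over them and that of the element at 3477760 from -1.27 to -0.91. The corresponding ranges were -0.77 to -0.53 at 3494464 and -0.82 to -0.63 at 3300860. One of these alternatives used trended offsets, a loess correction in each library for how counts depend on a region's mean strength, and called 3.89% of all regions lower (5.94% in either direction).

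Over the 6 libraries, the regions elsewhere whose log2 CPM followed the element at 3460643 most closely were an intergenic one 7.78 kb from Shq1 (Pearson r 0.9992, chromosome 6, 100563260 to 100564031) and one inside Ubr3 (0.9985, chromosome 2, 69994732 to 69995207). The next were inside Mta3 (0.9983), 20.6 kb from Calcoco1 (0.9982) and 8.38 kb from U2af1 (0.9981). Near Shq1 the levels were 17.4, 15.6 and 16.7 CPM in controls and 6.31, 5.44 and 4.6 CPM in palmitate. All 5 were called lower. With 2 groups of 3, such an r mostly restates the difference between the groups, and 147 of 24282 candidate regions exceeded 0.98.

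Cdk4, the other kinase that D cyclins activate, had a single region, over its end and listed start (chromosome 10, 127063184 to 127063817). It stood at 273, 238 and 284 CPM in controls and at 330, 348 and 334 CPM in palmitate. All palmitate libraries exceeded all controls, and the region rose with a log2 fold change of 0.35 ± 0.065 (SE), opposite in sign to the falls inside Cdk6. With trended offsets the log2 fold change was 0.02 ± 0.054 (SE) and not called. The region belonged to the strongest of 10 equal classes of regions, of which 70.4% were called higher with TMM.

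Ccnd2, which encodes cyclin D2, spans 27 kb (chromosome 6, 127125162 to 127152188) and had 8 regions, of which 1 fell and 7 were not called. The strong region over one end (127151739 to 127152775) had 163, 140 and 153 CPM in controls and 148, 151 and 183 CPM in palmitate. The groups overlapped there, with a log2 fold change of 0.08 ± 0.08 (SE), which turned to -0.17 with trended offsets. Summed over its 8 regions, Ccnd2 had 292, 264 and 299 CPM in controls and 285, 272 and 326 CPM in palmitate, again overlapping.

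The fall was in a weak region 0.196 kb beyond the other end of Ccnd2 (127124716 to 127124966), with raw counts of 8, 18 and 20 in controls and 4, 11 and 4 in palmitate. In CPM it had 3.49, 5.99 and 6.8 in controls and 1.58, 3.74 and 1.53 in palmitate, so palmitate 2 overlapped control 1. The log2 fold change was -1.23 ± 0.42 (SE), and the call was lost without palmitate 1 (-1.03) or palmitate 3 (-1.01), in the DESeq2 Wald test (-1.20) and with trended offsets (-0.27). Without control 2 or control 3 it did not pass the filter on low counts. It was listed as a peak in 2 control libraries and in no palmitate library. Every region of the matrix overlapped a peak in at least 2 of the 6 lists. This one did so through controls alone, the group where it was higher. Its fall is therefore not independent of its place in the matrix.

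2 of the 8 regions of Ccnd2 were separated between the groups without being called, while 38.9% of all tested regions were separated, called or not. One 2.77 kb beyond the strong end (127154953 to 127155164) had 27.5, 25.0 and 26.9 CPM in controls and 32.3, 30.6 and 37.2 CPM in palmitate, and it was a listed peak in 1 control and 3 palmitate libraries (log2 fold change 0.34 ± 0.15 SE). One inside the gene (127143236 to 127143484) had 9.59, 12.0 and 9.86 CPM in controls and 8.28, 6.12 and 6.52 CPM in palmitate (-0.60 ± 0.28 SE), with a peak in 2 control lists and 0 palmitate lists. The first was higher and the second lower in each palmitate library than in any control. The second was in the matrix through control peaks alone, so its lower palmitate values are not independent of that.

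The other 4 regions of Ccnd2 overlapped between groups. The one 2.34 kb inside the strong end had 32.7, 30.6 and 41.8 CPM in controls and 41.0, 35.7 and 41.4 CPM in palmitate. The one 3.4 kb outside it had 37.5, 32.3 and 39.1 against 38.6, 30.2 and 39.1 CPM, nearly the same in both groups. The region at 127142267 had 9.59, 13.6 and 15.6 against 11, 9.51 and 13.8 CPM, and the weak one at 127162930 had 8.28, 3.99 and 5.44 against 3.55, 5.1 and 4.22 CPM. Their log2 fold changes lay between -0.41 and 0.16.

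Ccnd3, the gene of cyclin D3, spans 94.6 kb (chromosome 17, 47505051 to 47599689). It moved in both directions, with 2 rises close to its first start, 1 fall close to its far end and 8 regions not called. The sum over its 11 regions was 446, 462 and 438 CPM in controls and 459, 472 and 466 CPM in palmitate, and the groups overlapped.

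Both rises lay inside the gene, where 4.3% of all regions were called higher. By strength, the one at 47507957 belonged to the strongest of the 10 classes, where 70.4% were called higher and the median log2 fold change was 0.27. The one at 47511151 belonged to the class from 58.7 to 103 CPM, where 29.6% were called higher and the median was 0.18. The region 2.91 kb from the end of the span (47507957 to 47508443) had 95.9, 87.5 and 102 CPM in controls and 109, 121 and 114 CPM in palmitate, with a log2 fold change of 0.27 ± 0.084 (SE). The region 6.1 kb from the same end (47511151 to 47511444) had 59.7, 62.9 and 63.2 CPM in controls and 68.6, 84.6 and 84.4 CPM in palmitate, with 0.35 ± 0.1 (SE). Palmitate exceeded control in every library of both. These calls were less stable than those of Cdk6. That at 47507957 was lost without control 2 (log2 fold change 0.22) or palmitate 2 (0.24) and that at 47511151 without palmitate 2 (0.31) or palmitate 3 (0.31), and neither held with total counts (0.16 and 0.24) or trended offsets (0.07 and 0.20). The DESeq2 Wald test did not call the one at 47507957 either, at a fold no smaller (0.31).

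The first listed start of Ccnd3 itself (47504915 to 47505168) had 35.3, 35.9 and 39.1 CPM in controls and 48.9, 41.5 and 38.7 CPM in palmitate, overlapping by palmitate 3 (log2 fold change 0.22 ± 0.13 SE, not called). At the second listed start (47593296 to 47593783) the levels were 69.7, 67.5 and 71.7 CPM against 76.9, 83.2 and 76.3 CPM. Here the groups were separate, yet the log2 fold change of 0.18 ± 0.094 (SE) was not called. Its value was 0.06 with total counts and 0.02 with trended offsets, and the median of all regions of its strength class was 0.18 as well.

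The fall of Ccnd3 was 1.13 kb inside its far end and 0.776 kb from the end of the neighbouring gene Bysl (47598146 to 47598555), which encodes a ribosome assembly factor. Controls had 55.8, 51.2 and 41.5 CPM and palmitate libraries 28.4, 27.9 and 29.5 CPM. The groups did not overlap, the log2 fold change was -0.78 ± 0.14 (SE), and the call held in all 15 alternative fits and thresholds (-0.90 to -0.70). Divided by the count at the second start, 4.88 kb away, its count was 0.8, 0.759 and 0.578 in controls and 0.369, 0.335 and 0.387 in palmitate. Over all gene ends 2.47% of regions were called lower and 25.0% higher.

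Within a library, neither rise set its count apart between groups against the first start, where ratios at 47511151 ran from 1.62 to 1.75 in controls and 1.4 to 2.18 in palmitate. Against the second start the ratio at 47507957 was 1.38, 1.3 and 1.42 in controls and 1.42, 1.45 and 1.5 in palmitate, without overlap but with a narrow gap. The remaining regions of Ccnd3 overlapped between groups and were not called. The one inside Bysl, 1.26 kb beyond the end of Ccnd3, had 17.4, 25.0 and 18.0 CPM in controls and 17.7, 16.6 and 13.0 CPM in palmitate. The one at 47542096 had 19.6, 19.6 and 11.6 CPM in controls and 13.4, 10.2 and 15.3 CPM in palmitate. The 4 others, all inside the gene, had log2 fold changes from -0.34 to -0.02.

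**Figure D3:**
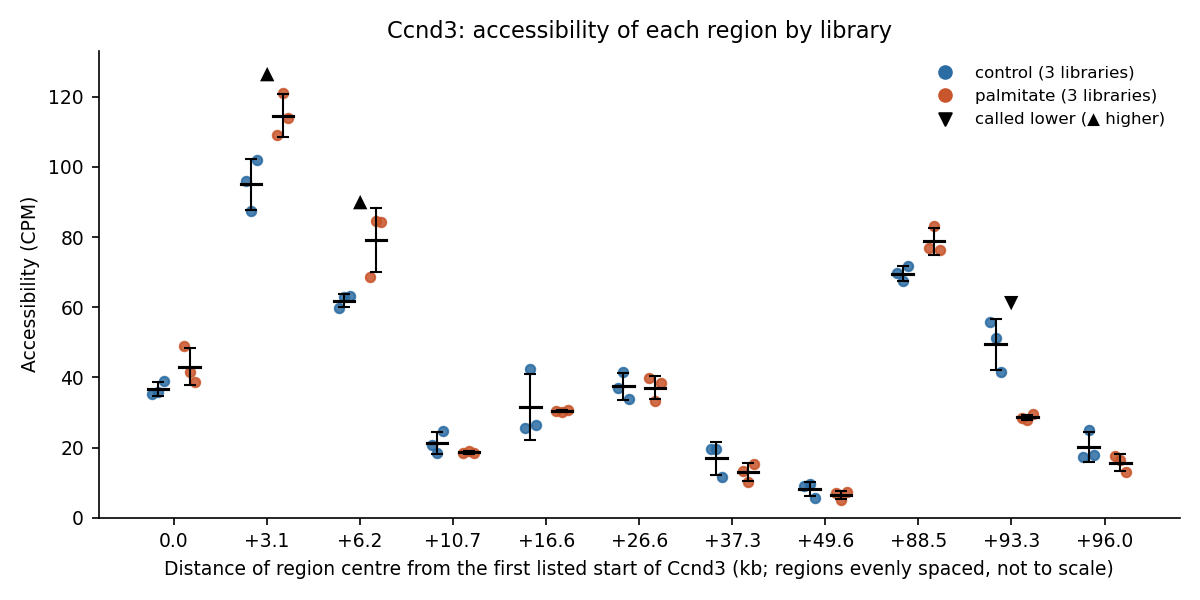
Accessibility in CPM (vertical axis) of the 11 Ccnd3 regions, ordered by the distance of the region's centre from the first listed start in kb and evenly spaced. Points are single libraries, bars the mean ± SD of 3, and triangles mark called regions. Palmitate points lie above the controls at 3.1, 6.2 and 88.5 kb and below them at 93.3 kb.

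Of the inhibitors, Cdkn2d and Cdkn1b each had 1 region that rose, Cdkn2c had none, and no region of the 3 genes fell. All their regions but the risen one of Cdkn1b were at gene ends. Of all regions at gene ends 25.0% were called higher and only 2.47% lower. The end of Cdkn2d, an INK4 protein that binds CDK4 and CDK6 (chromosome 9, 21290954 to 21291711), had 349, 294 and 344 CPM in controls and 405, 396 and 410 CPM in palmitate. The groups did not overlap and the log2 fold change was 0.30 ± 0.063 (SE). It stood in the same strongest class of regions as Cdk4, and with trended offsets it was -0.05 ± 0.051 (SE), below 0 and not called. The end of Cdkn2c, the other INK4 gene here (chromosome 4, 109666738 to 109667172), had 37.9, 35.9 and 34.7 CPM in controls and 44.1, 47.2 and 36.4 CPM in palmitate. Palmitate 3 lay within the controls, and the log2 fold change of 0.24 ± 0.14 (SE) was not called.

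Cdkn1b encodes the CIP/KIP inhibitor that holds resting T cells out of the cycle. Its end and start (chromosome 6, 134920025 to 134920800) had 53.6, 68.9 and 56.8 CPM in controls and 63.9, 61.2 and 55.2 CPM in palmitate, at nearly equal means of 59.8 ± 8.06 and 60.1 ± 4.42 CPM (log2 fold change 0.00 ± 0.11 SE). The region 2.85 kb beyond its other end (134928379 to 134929113) rose. Of all intergenic regions 2.66% were called higher and 18.4% lower. In its class of strength, from 58.7 to 103 CPM, 29.6% were called higher and the median log2 fold change was 0.18. The risen region had 54.0, 48.6 and 54.4 CPM in controls and 70.2, 72.0 and 74.8 CPM in palmitate, with no overlap. Its log2 fold change of 0.47 ± 0.1 (SE) was called in all 15 alternative fits and thresholds (0.34 to 0.53). It was the only one of the 34 regions called higher with trended offsets, where 2.05% of all regions were. Within a library, its count over that of the start was 1.01, 0.705 and 0.958 in controls and 1.1, 1.18 and 1.35 in palmitate.

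**Figure D4:**
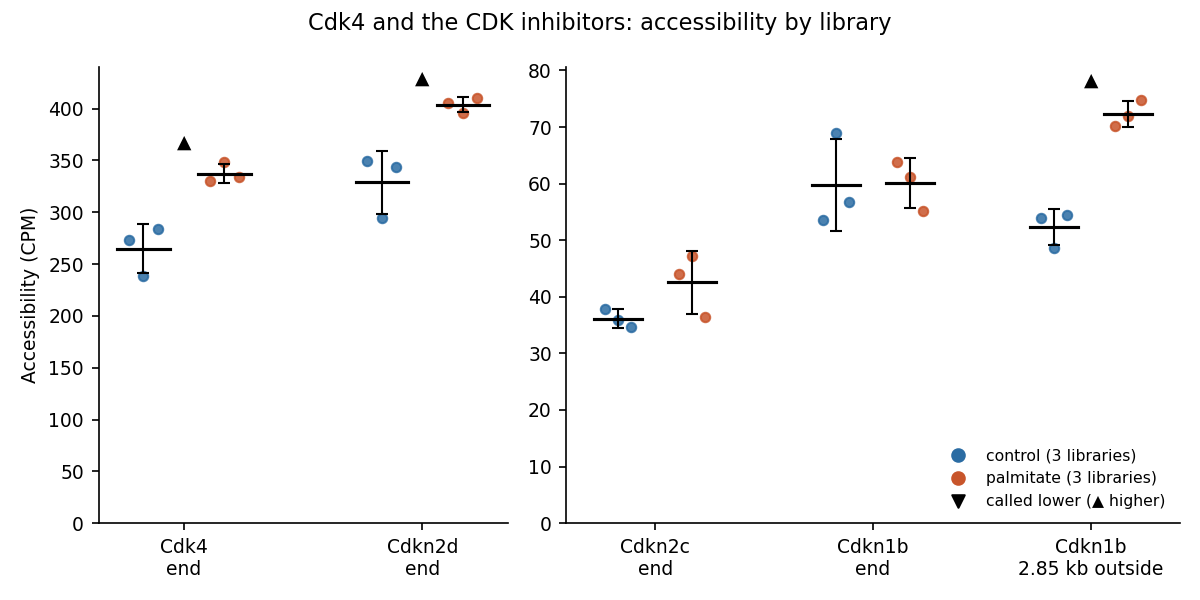
Accessibility in CPM (vertical axes, which differ between the panels) at Cdk4 and Cdkn2d (left) and at Cdkn2c and Cdkn1b (right). Points are single libraries, bars the mean ± SD of 3, and triangles mark called regions. Palmitate points lie above all controls at Cdk4, at Cdkn2d and 2.85 kb outside Cdkn1b, and overlap them at the ends of Cdkn2c and Cdkn1b.

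Fold change ran with region strength over the whole matrix, and the 34 regions can be set on that trend. Regions were split into 10 equal classes by mean CPM. In the class between 38.3 and 58.7 CPM, which holds the element of Cdk6 at 3460643 and the fall of Ccnd3, the median log2 fold change was 0.09 and 4.61% were called lower. The strongest class, from 103 CPM, had a median of 0.27, close to the 0.35 of Cdk4 and the 0.30 of Cdkn2d. In the weakest class, up to 6.27 CPM, the median was -0.59 and 24.9% were called lower, and the fall at Ccnd2 lay there. With trended offsets 5 of the 34 regions were called lower and 1 higher, the 4 falls of Cdk6, that of Ccnd3 and the rise beside Cdkn1b.

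**Figure D5:**
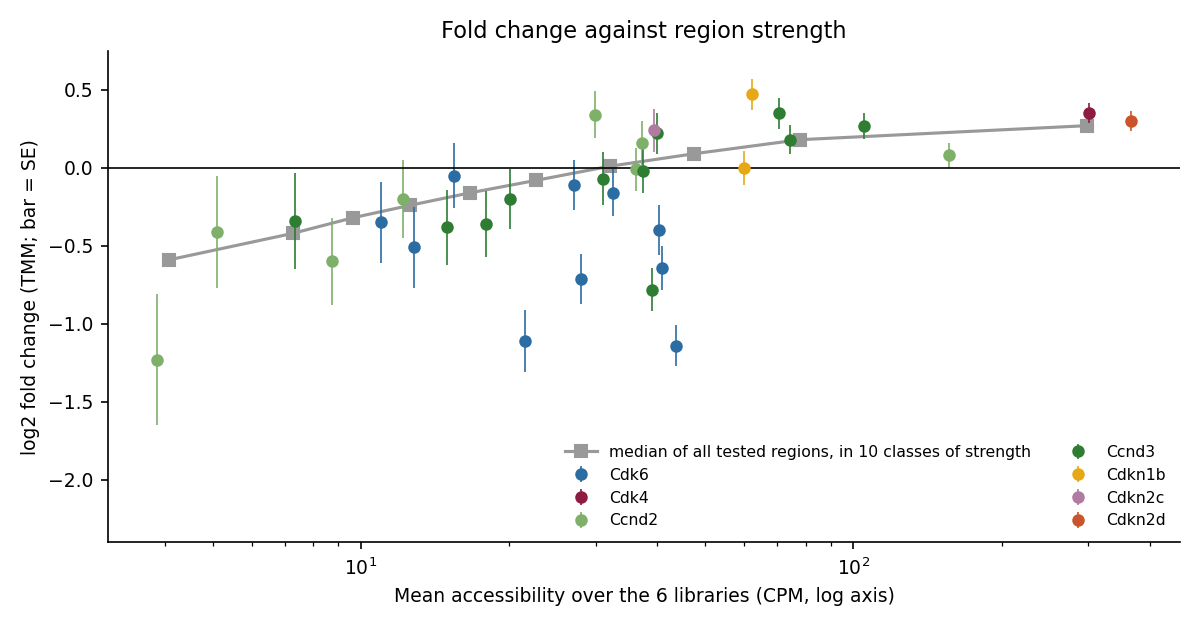
Log2 fold change of palmitate against control (vertical axis, TMM scaling, bars are SE) against mean accessibility over the 6 libraries in CPM (log axis) for the 34 regions, coloured by gene. The grey line joins the medians of all tested regions in 10 classes of strength, from -0.59 to 0.27. Called Cdk6 regions lie below the line, while Cdk4 and Cdkn2d lie near it.

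Other genes of the G1 to S step, taken as a list of 35, had 63 regions, of which 10 rose, 7 fell and 46 were not called, with a median log2 fold change of 0.06. Some of the 7 falls had peaks in control lists only and were in the matrix through the group where they were higher. These were the regions 2.99 kb from E2f3, 20.4 kb inside Fbxw7 and 14.1 kb from Cdc25a. No region of the matrix was assigned to Ccnd1, the remaining D cyclin. At gene ends 9 of 32 regions rose and 0 fell, where 25.0% of all such regions were called higher and 2.47% lower. Inside genes 0 of 15 rose and 2 fell, where 4.3% and 19.6% of all were called higher and lower, and of 16 intergenic regions 1 rose and 5 fell, where 2.66% and 18.4% were. At gene ends the split was thus close to that of the whole matrix. The other classes held only 15 and 16 regions, and the share of intergenic regions that fell was above 18.4%. With trended offsets 1 of the 63 regions was higher, at the end of Rb1, and 3 were lower. The 3 included the end of E2f3 (29986028 to 29986512), with -0.20 there and 0.11, not called, with TMM.

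Among the regions with the smallest p, the end of Ccne1, the cyclin E1 gene that acts after the D cyclins, had 165, 178 and 191 CPM in controls and 234, 241 and 220 CPM in palmitate. Its log2 fold change was 0.38 ± 0.069 (SE), and a region 12.6 kb away rose with 0.28 ± 0.063 (SE). A weaker one 20.3 kb away fell, from 15.3, 9.32 and 10.9 CPM to 4.73, 5.78 and 7.67 CPM (-0.94 ± 0.29 SE), so Ccne1 had calls in both directions. The ends of Fzr1, an activator of the anaphase-promoting complex, of Tfdp2, a partner of E2F factors, and of Lin52 (shared with Aldh6a1), a subunit of the DREAM complex, rose with 0.32, 0.44 and 0.25. An intergenic region 2.99 kb from E2f3, an activating E2F factor, fell from 12.6, 5.32 and 9.86 CPM to 2.37, 3.06 and 1.53 CPM (-1.93 ± 0.39 SE). The element inside Ambra1, an adaptor in the degradation of D cyclins, had 42.7, 56.2 and 58.1 CPM in controls and 37.8, 30.9 and 33.0 CPM in palmitate (-0.64 ± 0.14 SE). One inside Fbxw7, which targets cyclin E for degradation, also fell, with -1.57 ± 0.37 (SE). This one and the region 2.99 kb from E2f3 were peaks in 3 control lists and 0 palmitate lists. Their falls are therefore not independent of their place in the matrix. Fbxw7 had a further fall 5.74 kb outside (-0.84 ± 0.25 SE) and a rise at its end (0.19 ± 0.063 SE). These 2 and the fall near Ccne1 were added after their values were seen, to show both directions. With trended offsets the region 2.99 kb from E2f3 and the element inside Ambra1 were still called, with -1.31 and -0.68. The other regions named alongside them were not called.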

How the data were processed

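ATAC-seq was analysed from a count matrix and 6 peak lists. The authors' deposited matrix holds raw counts per region, and the deposited peak lists hold 1 library's peaks each with a score, used here only for presence. Per the submitters' processing notes, which give no order, edgeR 3.40.2, MACS2 2.2.8, Picard 2.23.8, Bowtie2 2.5.1 and Trim Galore 0.6.10 were used with build mm10. Neither the Tn5 shift nor how regions were built and counted is stated there, so neither could be checked. Every region overlapped a peak in at least 2 of the 6 lists (1 bp or more), so regions open in few libraries are missing.

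Counts were tested with edgeR 4.0.16 (R 4.3.3): glmQLFit and glmQLFTest, two-sided, TMM factors, filterByExpr (24316 regions tested, 289 removed), Benjamini-Hochberg adjustment over all of them, false discovery rate 0.05. The code was tested on simulated data. SE is the absolute log2 fold change over the square root of F. Alternatives were DESeq2 1.42.0 (Wald test, and its size factors in edgeR), limma-voom (limma 3.58.1), total counts, trended offsets (loess on mean abundance, span 0.3, pseudocount 0.5 reads), a replicate block, a threshold of 0.1, no filter or one of 20 reads in 3 libraries, each library left out, and for counts of regions a distance of 20 kb, gene spans only and regions in all 6 lists. Likeness to the Cdk6 element used log2(CPM + 0.5).

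Gene spans came from a table of 21900 protein-coding genes (GRCm38.p6) without exons or strand. Starts came from the promoter table. Genes and lists were chosen with earlier results of these data known. Values in all libraries are printed for each gene's regions within 1 kb of its ends and its up to 6 others with the smallest p, and up to 8 called regions of the 35 other genes are named. Distal elements were not searched for motifs.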

Additional observations from a re-analysis of the deposited data

Results flagged for a closer look

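Outside the matrix, the peak lists held 15 further peaks assigned to these genes by the same rule, 9 in control and 6 in palmitate lists, of 199 peaks in all. Of these, 3 were in a palmitate list with no overlapping peak outside the matrix in any control list, which is why they are given here. A peak inside Cdk6 (chromosome 5, 3420772 to 3421093) was listed in palmitate 1 with the authors' score of 40. Another inside Cdk6 (3502737 to 3502952) was listed in palmitate 2 with a score of 140, and one inside Ccnd2 (chromosome 6, 127150984 to 127151155) in palmitate 3 with a score of 198. Control lists held such peaks too, with no overlapping palmitate peak outside the matrix. Inside Cdk6 these started at 3342666 (control 1), 3508552 and 3512681 (control 2) and 3463313 (control 3). Others were near Ccnd2 at 127157464 (control 1) and near Cdkn2c at 109657491 (control 3). Each of these peaks, from either group, was in 1 library only. There is thus no replicate behind any of them, and no difference between groups was tested.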

How the results depend on the processing

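The 4 falls of Cdk6, the fall of Ccnd3 and the rise beside Cdkn1b were called in each of the 15 alternative fits and thresholds. Among these, the threshold of 0.1 could not lose a call made at 0.05. The rises in the 34 regions numbered 5, and became 3 with total counts, where 5.27% of all regions were called higher, and 1 with trended offsets. With trended offsets the log2 fold change at Cdkn2d turned to -0.05. The 6 falls ranged from 4 (gene spans only) to 7. The other G1 to S genes had 10 rises, against 5 with total counts and 1 with trended offsets. They had 7 falls, against 3 in the DESeq2 Wald test, which called 4.99% of all regions lower, and 3 with trended offsets. The 3 with trended offsets included the end of E2f3 (-0.20), which was not among the 7 falls. Leaving out each library in turn gave 3 to 5 rises and 5 to 7 falls in the 34 regions, with the fewest rises without palmitate 2, while 8.43% to 11.4% of all regions were called higher and 7.68% to 13.9% lower. The share higher was lowest without palmitate 2 too. The DESeq2 Wald test gave 4 rises and 5 falls, with 7.85% of all regions called higher. In the other genes leaving out each library gave 7 to 10 rises and 3 to 7 falls. There were 3 falls without control 1 or palmitate 1 and 4 without control 3. The log2 fold change of the Cdk6 element at 3460643 was -1.23 to -1.06 over these fits. Same-numbered libraries did not deviate together (correlations of 0.000449, -0.104 and -0.027), so the numbers are not taken as pairs. With the replicate block the 34 regions gave 5 rises and 6 falls, the other genes 10 and 7, and the Cdk6 element -1.14. Over the matrix the block moved the calls from 24.6% to 22.8% of regions. Depth limits the weak regions: the Ccnd2 fall rests on 4 to 20 reads per library and was not tested with the stricter filter.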
